A study of Homo sapiens with 6 samples.

Results

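The mitochondrially encoded genes are the 37 genes of the human mitochondrial genome: 13 protein genes, 2 ribosomal RNA (rRNA) genes and 22 transfer RNA (tRNA) genes. They were chosen by symbol, as every gene whose symbol starts with MT-, and all 37 were found among the 60499 gene IDs of the deposited tables. The RNA came from H1, an established line of human embryonic stem cells, which grew in nutristem medium on either of 2 laminin coatings and was collected at day 4 for sequencing of total RNA. The LN-521 group grew on laminin-521 alone, and the LN-521+LN-221 group, also called the combined coating here, grew on laminin-521 together with laminin-221, so every well had laminin-521. Each group held 3 wells of the same line, sequenced as separate libraries, and p-values measure only the spread between these wells. Markers of pluripotent stem cells were present in all 6 libraries, with a summed CPM (a gene's count scaled to a common library size) of 8672 to 8682 over 8 genes on LN-521 and 8617 to 8739 on the combined coating. Within that sum 4 of the 8 markers differed between coatings (NANOG, TDGF1, POU5F1 and LIN28A).

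The mitochondrial genome is a small circle of DNA held in many copies per cell. It encodes core subunits of respiratory complexes I, III and IV and of the ATP synthase, with the rRNAs and tRNAs that mitochondria need to translate them, while all other mitochondrial proteins come from nuclear genes. The genome is transcribed into long RNAs from both strands, and these are cut into separate mRNAs, rRNAs and tRNAs, often at the tRNAs that lie between them. The amount of each mature RNA therefore follows both shared transcription and its own processing and decay, and the 37 genes cannot be treated as independent of each other.

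The layout of the genome bears on how reads could be assigned, and 3 places in it are shown here, from GENCODE release 29 transcripts (GRCh38). The junction at chrM:9961-10088, plus strand, joins the genes for MT-CO3 and MT-ND3, which both passed the test between coatings. The tRNA gene MT-TG, in capitals, lies between them with no spare base on either side.
CO3-TG-ND3 junction: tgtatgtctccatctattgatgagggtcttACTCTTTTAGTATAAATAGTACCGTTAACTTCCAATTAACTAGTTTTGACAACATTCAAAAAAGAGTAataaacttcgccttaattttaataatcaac
The end of MT-ATP8 and the start of MT-ATP6 share 46 bases (chrM:8527-8572, plus strand), and the start codon of MT-ATP6 and the stop codon of MT-ATP8 are in capitals.
ATP8-ATP6 overlap: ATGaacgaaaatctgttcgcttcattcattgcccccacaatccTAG
The end of MT-ND4L and the start of MT-ND4 share the 7 bases in capitals (chrM:10737-10789, plus strand).
ND4L-ND4 overlap: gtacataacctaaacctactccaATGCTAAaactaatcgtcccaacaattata
How a read that reaches into an overlap was assigned is not given in the sources used here. The estimated counts of MT-ATP8, MT-ND4L and MT-ND4 were whole numbers, exactly as deposited and with no tolerance, in all 6 libraries. The plus strand of the annotation holds 28 of the 37 genes, and the minus strand holds MT-ND6 and 8 tRNA genes. Whether counting used the strand is not given in the sources used here, so reads from RNA opposite to MT-ND6 cannot be told apart from its own.

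Total counts per library ran from 20606450 to 26836686, with a mean of 24819981 on LN-521 (22669589, 26836686 and 24953668) and 22337204 on the combined coating (20606450, 22398416 and 24006746). The sample sheet lists 1 sequencing batch. RNAs of the 7SL family took 4.64%, 6.13% and 5.44% of the counts on LN-521 and 4.53%, 4.795% and 5.24% on the combined coating, highest in LN-521 replicate 2. Of the TPM values, which correct for the short length of these RNAs, they took 30.1% to 37.3%, again highest in that library, and their part in the TPM values of the mitochondrial genes was not tested. Over all 17608 genes tested with edgeR's quasi-likelihood test, 446 (2.53%) differed between coatings at an adjusted p-value under 0.05, 246 of them higher and 200 lower on the combined coating. With limma on log2(TPM + 1), 33 were higher and 11 lower. The 446 became 1179 without LN-521 replicate 1, 201 without LN-521 replicate 3, and 290, 198 and 194 without replicates 1, 2 and 3 of the combined coating.

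The mitochondrial genes took a small share of the counts, and that share was higher on the combined coating in each well than in any LN-521 well. They took 0.387%, 0.315% and 0.375% of all counts on LN-521, a mean of 0.359% ± 0.0382 (SD, n = 3). On LN-521+LN-221 they took 0.441%, 0.400% and 0.404%, a mean of 0.415% ± 0.0225 (SD, n = 3). The groups did not overlap, and the ratio of the means was 1.16. LN-521 replicate 2 had the lowest share, and without it the ratio was 1.09. As a share of the authors' TPM values (transcript abundance relative to the library total, corrected for transcript length) the genes took 0.413%, 0.294% and 0.369% on LN-521 and 0.474%, 0.424% and 0.407% on the combined coating, where the groups did overlap. In bulk RNA a change in mitochondrial RNA per cell and a change in the mix of cells cannot be told apart. No p-value is given for a sum over the chosen genes.

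**Figure D1:**
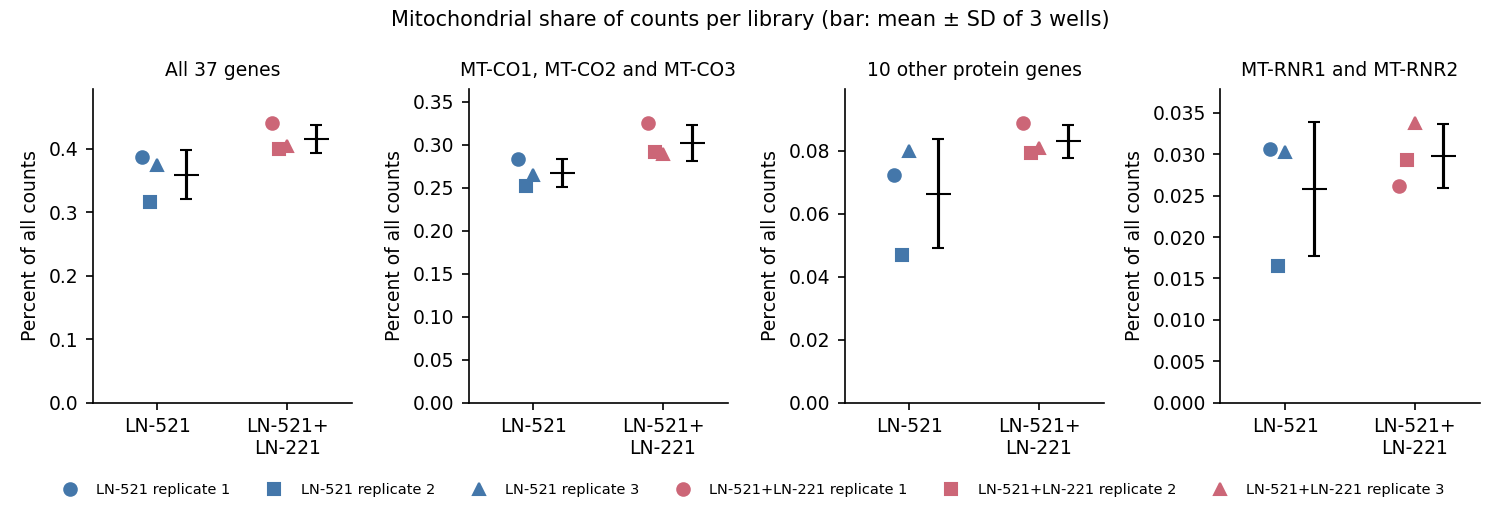
Percent of all counts taken by mitochondrial genes in each library (vertical axes, each starting at 0), for all 37 genes, the 3 complex IV genes, the 10 other protein genes and the 2 rRNAs. Points are wells, bars are the mean ± SD of 3 wells; for all 37 genes every LN-521+LN-221 well, from 0.400% to 0.441%, lies above the LN-521 wells, while the shares of the 10 other protein genes and of the rRNAs overlap and LN-521 replicate 2 is the lowest well in each panel.

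Gene by gene, 15 of the 37 passed the filter on low counts: all 13 protein genes and both rRNAs. MT-CO2, MT-CO3 and MT-ND3 were higher on the combined coating at an adjusted p-value under 0.05 and none was lower (edgeR quasi-likelihood test, adjusted over all genes tested). That is 3 of 15, beside 1.4% of all genes called higher and 1.14% called lower. At an unadjusted p-value under 0.05 (edgeR) there were 5 of 15, beside 14.5% of all genes tested. The median log2 fold change of the 15 was 0.32, with a range of 0.08 to 0.44, beside a median of -0.0011 over all genes tested. All 15 fold changes were above 0, as were 49.7% of all genes tested. The CPM of the coatings did not overlap in 8 of the 15, each higher on the combined coating, beside 10.2% of all genes tested that did not overlap in this direction and 19.9% in either. LN-521 replicate 2 was the lowest of the 6 libraries in 14 of the 15 genes, and in 22.3% of all genes tested. Without that library the median of the 15 was 0.19, 13 were above 0, and MT-CO2 and MT-CO3 were called. The 3 calls became 5 without LN-521 replicate 1, 2 without LN-521 replicate 3 (MT-CO2, which was kept, and MT-ND6), and 0 without any 1 well of the combined coating (edgeR, 4 at an unadjusted p-value under 0.05 each time). In those last fits the median was 0.30 to 0.31 and all 15 were above 0. Of all genes tested there, 2026 of 17995, 1763 of 18036 and 1969 of 17823 had an unadjusted p-value under 0.05 (edgeR, without replicates 1, 2 and 3 in turn). None of the 15 passed with limma on log2(TPM + 1), where the median was 0.39 and all 15 were above 0. In that fit 6 of the 15 had an unadjusted p-value under 0.05, beside 1128 of 14428 genes tested. MT-CO3 did not pass with scaling by library size alone (edgeR adjusted p = 0.062).

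**Figure D2:**
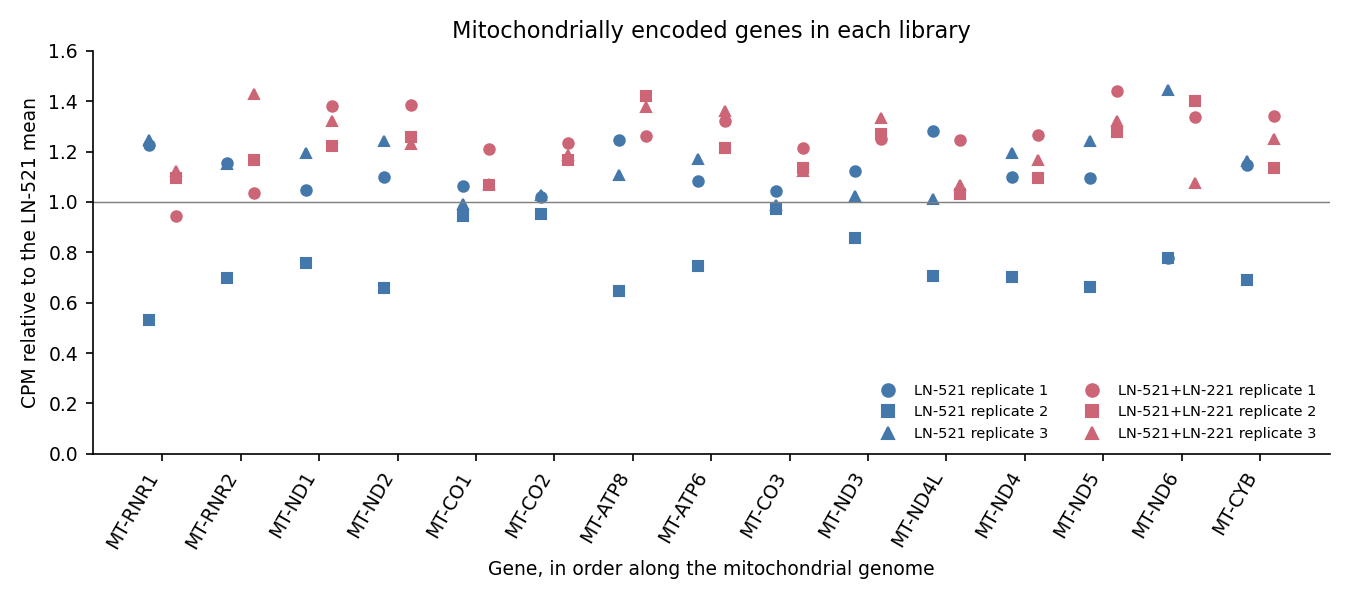
CPM of each tested gene in each library, divided by the gene's LN-521 mean (vertical axis, no unit), in order along the genome. Points are wells; MT-CO1, MT-CO2 and MT-CO3 show little spread within a coating, whereas LN-521 replicate 2 lies well below the other wells for most other genes.

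MT-CO1, MT-CO2 and MT-CO3 encode the core of cytochrome c oxidase (complex IV), which passes electrons to oxygen. MT-CO2 (ENSG00000198712, chrM:7586-8269) stood at 247, 232 and 250.03 CPM on LN-521 and at 300.1, 283 and 289 CPM on the combined coating. Every well with laminin-221 was above every well without it. Its mean rose from 243 ± 9.88 CPM to 291 ± 8.63 (SD, n = 3 each), or by 0.26 ± 0.05 in log2 (SE; edgeR adjusted p = 0.0105). MT-CO3 (ENSG00000198938, chrM:9207-9990) stood at 971, 905 and 921 CPM on LN-521 and at 1133, 1057 and 1048 CPM on the combined coating, again with no overlap. Its mean rose from 933 ± 34.4 CPM to 1079 ± 46.3 (SD, n = 3 each), or by 0.21 ± 0.05 in log2 (SE; edgeR adjusted p = 0.0346). MT-CO1 (ENSG00000198804, chrM:5904-7445) stood at 1585, 1406 and 1477 CPM on LN-521 and at 1800.5, 1587 and 1596 CPM on the combined coating. These wells too did not overlap, although the highest LN-521 well and the lowest LN-521+LN-221 well lay within 3 CPM of each other, and the log2 fold change of 0.16 ± 0.06 (SE) did not pass the test (edgeR adjusted p = 0.208). It ran from 0.10 without LN-521+LN-221 replicate 1 (edgeR adjusted p = 0.620) to 0.20 without LN-521 replicate 1, where it passed (edgeR adjusted p = 0.021). MT-CO2 lost the threshold without any 1 of the LN-521+LN-221 wells (edgeR adjusted p from 0.0586 to 0.0872), and MT-CO3 lost it without LN-521 replicate 3 or any 1 of the LN-521+LN-221 wells (0.0928 to 0.221).

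The counts of these genes moved little from library to library before scaling, while library depth did move. The unscaled count of MT-CO1 was 36392, 37404 and 36804 on LN-521 and 37389, 35397 and 37789 on the combined coating. The group means were 36867 and 36858, a ratio of 1.00, while mean total counts on the combined coating were 0.90 of those on LN-521. The coefficient of variation (CV) of the unscaled MT-CO1 count over the 6 libraries was 2.37%, against 9.24% for total counts. Of 4783 nuclear genes with a mean count of at least 1000, 10 had a lower CV than MT-CO1, and the median was 9.33%. MT-CO3 had a CV of 3.71% and MT-CO2 one of 5.90%, with ratios of unscaled group means of 1.04 and 1.07. Depth thus moved with the CPM of the complex IV genes: LN-521+LN-221 replicate 1, the shallowest library, had their highest CPM, and LN-521 replicate 2, the deepest, had their lowest. The part of depth in these fold changes was not tested.

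**Figure D3:**
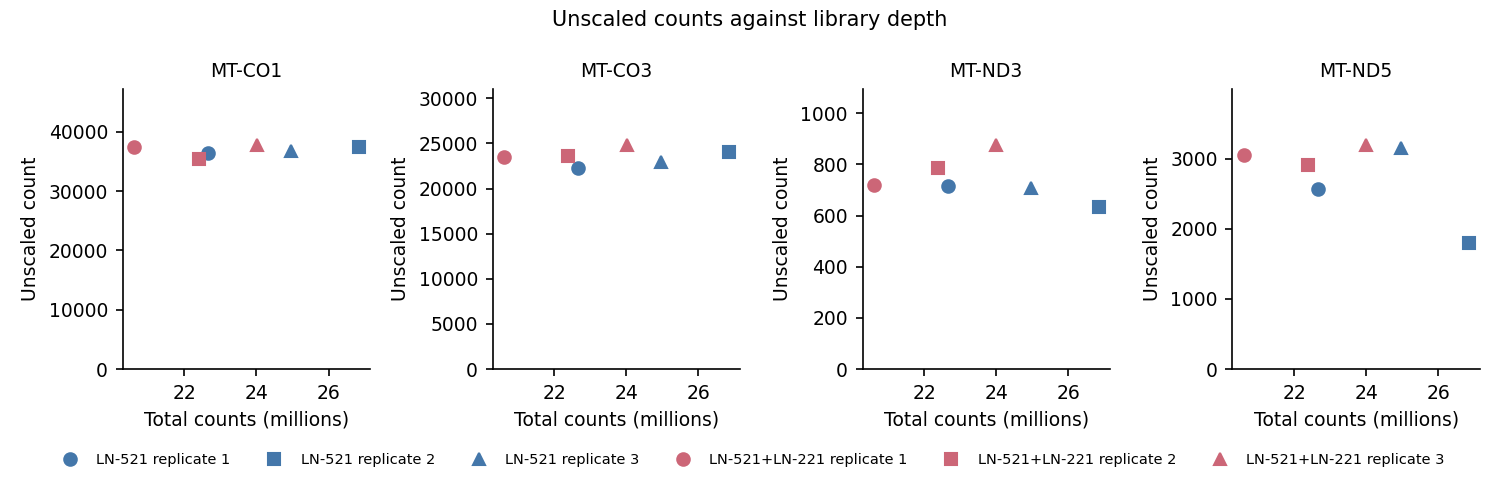
Unscaled counts of MT-CO1, MT-CO3, MT-ND3 and MT-ND5 (vertical axes, starting at 0) against the total counts of the library (horizontal axes). Points are wells; MT-CO1 stays between 35397 and 37789 counts over libraries of 20606450 to 26836686 total counts, and MT-ND5 has its lowest count, 1806, in the deepest library.

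Complex I, the NADH dehydrogenase that takes up electrons at the start of the chain, has 7 mitochondrially encoded subunits, all of them in its membrane arm. MT-ND3 (ENSG00000198840, chrM:10059-10404) was the member of this group that passed the test. It stood at 31.1, 23.8 and 28.4 CPM on LN-521 and at 34.7, 35.3 and 36.997 CPM on the combined coating, so that each LN-521+LN-221 well was above the LN-521 wells. Its mean rose from 27.8 ± 3.73 CPM to 35.7 ± 1.204 (SD, n = 3 each), or by 0.36 ± 0.09 in log2 (SE; edgeR adjusted p = 0.0374). The call was lost without LN-521 replicate 2 (0.26, edgeR adjusted p = 0.0562), without LN-521 replicate 3, and without any 1 of the LN-521+LN-221 wells (0.0984 to 0.200 over these 4). Unscaled, MT-ND3 had 715, 632 and 708 counts on LN-521 and 720, 787 and 876 on the combined coating. These did not overlap, but the closest wells of the 2 coatings stood at 715 and 720. The part of depth in its fold change was not tested.

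The other 6 complex I genes did not pass the test, with log2 fold changes of 0.16 to 0.43. MT-ND1 (ENSG00000198888) stood at 62.99, 45.7 and 71.9 CPM on LN-521 and at 83.02, 73.6 and 79.4 on the combined coating. Those wells did not overlap, and the log2 fold change was 0.39 ± 0.16 (SE; edgeR adjusted p = 0.365). MT-ND5 (ENSG00000198786) stood at 112, 67.9 and 127 CPM on LN-521 and at 147, 131 and 135 on the combined coating. It too had no overlap, and its log2 fold change was 0.43 ± 0.26 (SE; edgeR adjusted p = 0.563). MT-ND2 (ENSG00000198763) stood at 65.6, 39.2 and 73.9 CPM on LN-521 and at 82.3, 74.8 and 73.3 on the combined coating, which overlapped (0.37 ± 0.26, SE; edgeR adjusted p = 0.623). In all 3 the lowest well was LN-521 replicate 2, which lay at 0.677, 0.568 and 0.562 of the mean CPM of replicates 1 and 3 for MT-ND1, MT-ND5 and MT-ND2. Without it their log2 fold changes were 0.22, 0.21 and 0.14 (edgeR adjusted p = 0.0849, 0.0859 and 0.333), and without LN-521 replicate 3 they were 0.54, 0.62 and 0.56.

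MT-ND4 (ENSG00000198886) and MT-ND4L (ENSG00000212907) are translated from a shared mRNA, and their genes overlap as shown above. MT-ND4 stood at 208, 133 and 226 CPM on LN-521 and at 239.5, 207 and 221 on the combined coating (log2 fold change 0.24 ± 0.23, SE; edgeR adjusted p = 0.735). MT-ND4L stood at 21.8, 12.03 and 17.2 CPM on LN-521 and at 21.1, 17.5 and 18.2 on the combined coating (0.16 ± 0.20, SE; edgeR adjusted p = 0.789). The coatings overlapped for both, and without LN-521 replicate 2 the values were 0.04 for MT-ND4 and -0.04 for MT-ND4L (edgeR adjusted p = 0.851 and 0.928). The highest values with a library left out were 0.38 for MT-ND4, without LN-521 replicate 3, and 0.38 for MT-ND4L, without LN-521 replicate 1. MT-ND6 (ENSG00000198695), the protein gene of the minus strand, followed a different order of wells. It stood at 46.9, 47.1 and 87.3 CPM on LN-521 and at 80.9, 84.6 and 64.9 on the combined coating. LN-521 replicates 1 and 2 were the lowest wells, close to each other in CPM, and LN-521 replicate 3 was the highest. In TPM replicate 2 was the lower of the 2, at 99.8 against 114.6. The log2 fold change was 0.34 ± 0.32 (SE, edgeR adjusted p = 0.720). It was 0.19 without LN-521 replicate 1 or replicate 2 (edgeR adjusted p = 0.823 and 0.887) and 0.71 without LN-521 replicate 3 (edgeR adjusted p = 0.00161).

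**Figure D4:**
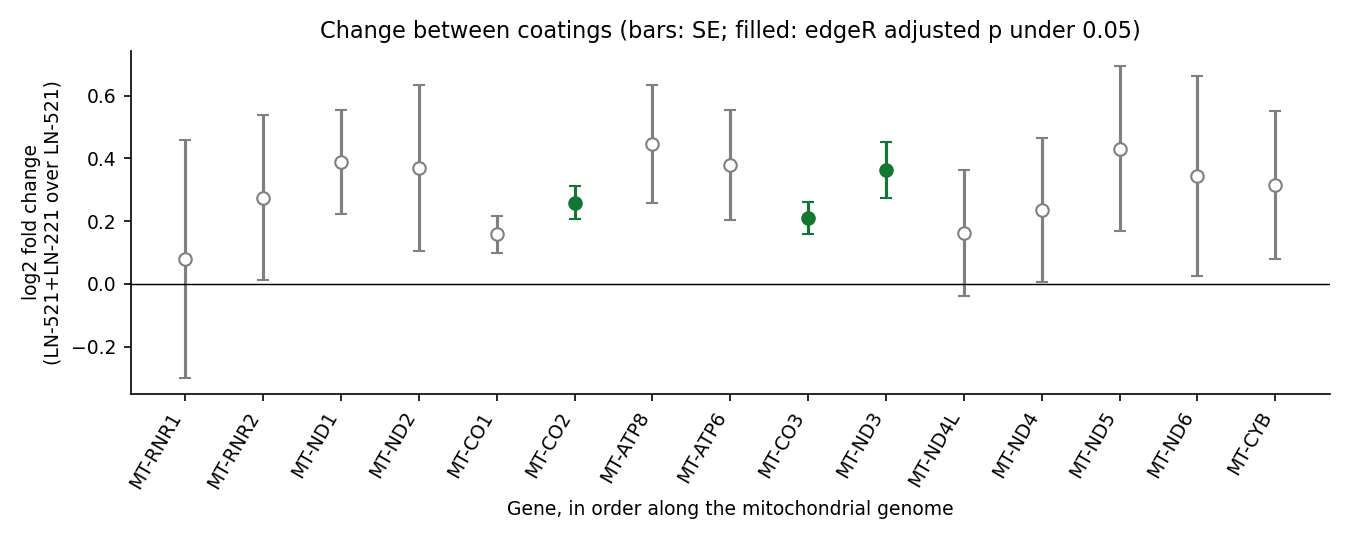
Log2 fold change of each tested gene, LN-521+LN-221 over LN-521 (vertical axis), in order along the genome; bars are SE and filled points have an edgeR adjusted p-value under 0.05. All 15 points lie above 0, from 0.08 for MT-RNR1 to 0.44 for MT-ATP8, and the 3 filled points, MT-CO2, MT-CO3 and MT-ND3, have SE of 0.05 to 0.09.

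MT-CYB (ENSG00000198727) encodes cytochrome b, the mitochondrial subunit of complex III, which hands electrons to cytochrome c. It stood at 84.6, 51.02 and 85.6 CPM on LN-521 and at 98.9, 83.8 and 92.2 on the combined coating, with a single well of the combined coating inside the LN-521 range, and the log2 fold change was 0.32 ± 0.23 (SE; edgeR adjusted p = 0.637). MT-ATP6 and MT-ATP8 encode membrane subunits of the ATP synthase, the enzyme that makes ATP from the proton gradient. MT-ATP6 (ENSG00000198899) stood at 70.6, 48.6 and 76.5 CPM on LN-521 and at 86.1, 79.1 and 88.8 on the combined coating (0.38 ± 0.17, SE; edgeR adjusted p = 0.415). MT-ATP8 (ENSG00000228253) had 190, 114 and 183 counts on LN-521 and 174, 210 and 216 on the combined coating, the fewest of the protein genes. In CPM these came to 8.28, 4.29 and 7.34 against 8.38, 9.42 and 9.12 (0.44 ± 0.19, SE; edgeR adjusted p = 0.292). For both genes the CPM of the coatings did not overlap, while the difference did not pass the test. Without LN-521 replicate 2 the values were 0.11 for MT-CYB, 0.20 for MT-ATP6 and 0.21 for MT-ATP8 (edgeR adjusted p = 0.466, 0.0884 and 0.485). MT-ATP8 passed without LN-521 replicate 1 (0.63, edgeR adjusted p = 0.0421).

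The rRNAs build the mitochondrial ribosome, and MT-RNR1 had the widest spread of CPM between LN-521 wells of the 15 genes, with a CV of 40.7% there against 8.95% on the combined coating. For 13 of the 15 genes the CV was wider on LN-521, the exceptions being MT-CO1 and MT-CO3. MT-RNR1 (ENSG00000211459, the small subunit rRNA) stood at 96.9, 41.9 and 98.4 CPM on LN-521 and at 74.8, 86.5 and 88.6 on the combined coating. LN-521 held both its highest and its lowest well, and replicate 2 lay at 0.429 of the mean of replicates 1 and 3. The log2 fold change was 0.08 ± 0.38 (SE; edgeR adjusted p = 0.955), and without LN-521 replicate 2 it was -0.23 (edgeR adjusted p = 0.0672), the lowest of a range up to 0.27 with a library left out. MT-RNR2 (ENSG00000210082, the large subunit rRNA) stood at 206, 124 and 205 CPM on LN-521 and at 185, 208 and 254 on the combined coating, which overlapped (0.27 ± 0.26, SE; edgeR adjusted p = 0.730), and its value was 0.07 without LN-521 replicate 2 (edgeR adjusted p = 0.901) and 0.14 without LN-521+LN-221 replicate 3 (edgeR adjusted p = 0.915). Together they made up 5.22% to 8.38% of the mitochondrial counts in a library. Whether the library kit's removal of rRNA covered the mitochondrial rRNAs is not given in the sources used here, so their counts cannot be read as amounts in the cell. Relative to the other mitochondrial genes, complex IV took 73.4%, 79.9% and 70.6% of the mitochondrial counts on LN-521 and 73.9%, 72.9% and 71.6% on the combined coating, and the 10 other protein genes took 18.7%, 14.9% and 21.3% against 20.2%, 19.8% and 19.999%. The coatings overlapped in both shares, with LN-521 replicate 2 at an end of each.

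The tRNAs were almost absent from the counts. Of the 22 genes, 18 had no count in any library and the other 4 had 5 counts in all, with at most 2 in a library. A count of 0 allows up to 0.112 to 0.146 CPM, depending on the library, for counting error only. The tRNA genes are 59 to 75 bases long, shorter than the 150 bp reads. The sequences of those with a count, none of which passed the filter on low counts, are as follows (5′ to 3′ as transcribed).
MT-TF (chrM:577-647, plus strand): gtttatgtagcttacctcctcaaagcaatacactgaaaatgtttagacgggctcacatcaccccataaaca
MT-TM (chrM:4402-4469, plus strand): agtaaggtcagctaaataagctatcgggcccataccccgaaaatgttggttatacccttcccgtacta
MT-TQ (chrM:4329-4400, minus strand): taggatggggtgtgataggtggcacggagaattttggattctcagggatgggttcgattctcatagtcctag
MT-TS2 (chrM:12207-12265, plus strand): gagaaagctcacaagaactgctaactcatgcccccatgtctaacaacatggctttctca
The 5 counts were 1 for MT-TF and 1 for MT-TS2 in LN-521 replicate 1, 2 for MT-TM in LN-521 replicate 2 and 1 for MT-TQ in LN-521+LN-221 replicate 3.

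Levels of different genes were compared in TPM, which is corrected for length. MT-CO3 had the highest mean TPM over the 6 libraries, 1329 ± 176 (SD, n = 6), followed by MT-CO1 at 926 ± 128 and MT-CO2 at 422 ± 58.5. That order held in 6 of 6 libraries. The other 12 genes lay between 59.1 ± 15.4 TPM (SD, n = 6) for MT-ND5 and 158 ± 44.6 for MT-ND6, below the complex IV genes in every library. Among these 12, neighbours in the order MT-ND6, MT-ND3, MT-ATP8 and MT-ND4 changed places, each above the next in 3 or 4 of 6 libraries. MT-ND4 was above MT-ATP6 in all 6. Only neighbours in the order were compared. MT-ATP6, MT-ND4L and MT-RNR2, at 120, 118 and 114 TPM, likewise changed places, each above the next in 3 of 6. MT-RNR1 was above MT-ND1 in 4 of 6 libraries and MT-ND1 above MT-CYB in 5 of 6. As for their counts above, the places of MT-RNR1 and MT-RNR2 in this order cannot be read as amounts in the cell. At the low end, MT-CYB was above MT-ND2 and MT-ND2 above MT-ND5 in 6 of 6 libraries, with mean TPM of 69.1, 63.5 and 59.1. MT-CO3 and MT-ND3, on either side of MT-TG in the junction printed above, stood at 1329 and 150.1 TPM.

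**Figure D5:**
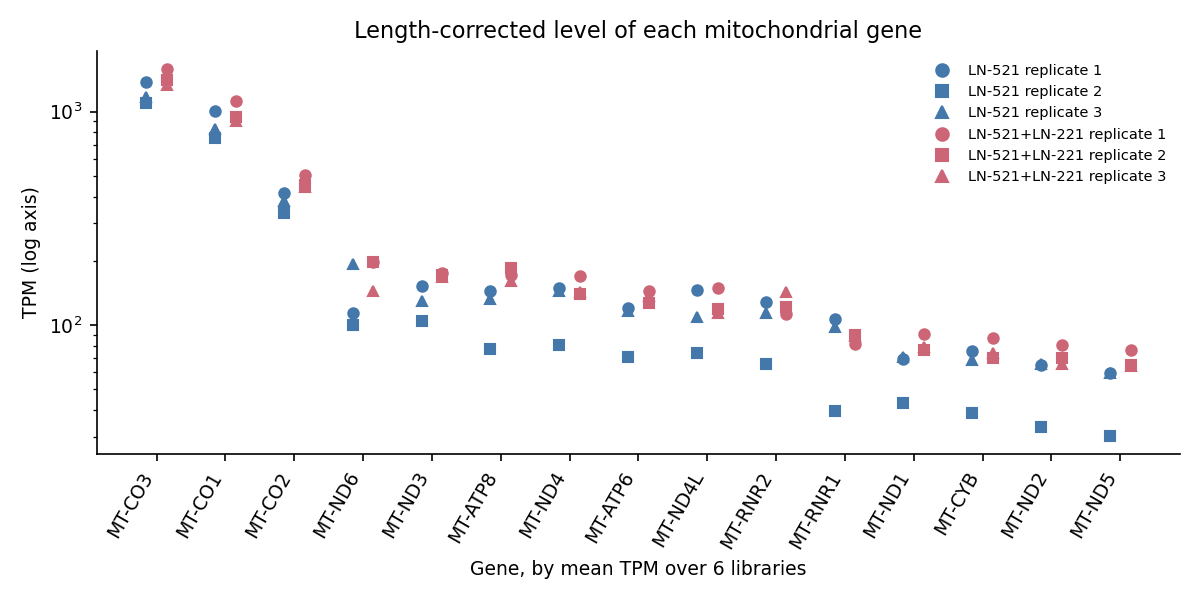
TPM of the 15 tested genes in each library (vertical axis, log scale), ordered by the mean over 6 libraries. Points are wells; the 3 complex IV genes lie at 336 TPM or more in every library, and all the others at 198 TPM or less.

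Nuclear DNA holds old copies of mitochondrial sequence, and reads can be divided between a gene and its copy. A stretch of chromosome 1 carries copies of MT-ND1, MT-ND2, MT-CO1, MT-CO2, MT-ATP6 and MT-CO3 that matched the mitochondrial gene at 98.2% to 98.7% of the aligned bases. The 60 bases of MT-ATP6 with the most differences from its copy MTATP6P1 (ENSG00000248527) are shown, with the 3 bases that differ in capitals.
MT-ATP6 (chrM:8642-8701, plus strand): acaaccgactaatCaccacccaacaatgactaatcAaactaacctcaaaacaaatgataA
MTATP6P1 (chr1:633811-633870, plus strand): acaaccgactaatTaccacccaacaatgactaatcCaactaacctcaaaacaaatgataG
MTATP6P1 had 13.2% to 14.6% of the count of MT-ATP6, and the copies of the other 5 genes in that stretch had at most 0.532% of theirs. Its level was 9.32, 6.54 and 10.6 CPM on LN-521 and 12.5, 11.1 and 12.97 on the combined coating (log2 fold change 0.47 ± 0.14, SE; edgeR adjusted p = 0.105). The coatings did not overlap, and LN-521 replicate 2 was the lowest well, as for MT-ATP6. Without it the MTATP6P1 value was 0.29 (edgeR adjusted p = 0.207). MTCO1P12 (ENSG00000237973) stood at 2.83 to 4.72 CPM over the 6 libraries (0.11 ± 0.19, SE; edgeR adjusted p = 0.852), and MTND1P19 (ENSG00000251449) at 0.321 to 1.27 CPM (0.32 ± 0.39, SE; edgeR adjusted p = 0.779). Of 403 such copies by symbol, 245 had no count in any library, 6 were tested and none passed (edgeR). Of the 6, 1 had an unadjusted p-value under 0.05 (edgeR), beside 14.5% of all genes tested. All 6 were above 0, with a median log2 fold change of 0.27. The 403 copies together took a mean of 0.00184% of all counts on LN-521 and 0.00239% on the combined coating. The groups did not overlap, and the ratio of means was 1.30, or 1.19 without LN-521 replicate 2, the lowest library. Without the filter on low counts MTATP6P1 passed, at 0.46 (edgeR adjusted p = 0.00495). Non-whole counts, which an estimate gives where it divides reads between genes, occurred in all 6 libraries for MT-CO1, MT-CO2, MT-CO3 and MT-ATP6, in 5 for MT-ND2, in 4 for MT-ND1 and in 1 for MT-ND6. The other 8 tested genes, MT-ND3, MT-ND4, MT-ND4L, MT-ND5, MT-CYB, MT-ATP8, MT-RNR1 and MT-RNR2, had exactly whole counts in every library.

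Nuclear genes that make and maintain mitochondrial RNA were set beside the mitochondrial genes. Of 9 genes of mitochondrial transcription, 1 was called higher and none lower, with a median log2 fold change of 0.06. The called gene, MTERF1, encodes a factor that binds mitochondrial DNA and ends transcription. It stood at 14.9, 12.9 and 15.7 CPM on LN-521 and at 19.3, 18.1 and 18.8 on the combined coating (0.37 ± 0.09, SE; edgeR adjusted p = 0.0487), and the call held in 1 of the 6 fits that left out a library, that without LN-521 replicate 1 (edgeR adjusted p from 0.0201 to 0.195), and was lost with library size alone (edgeR adjusted p = 0.0563). POLRMT, the mitochondrial RNA polymerase, was at -0.10 ± 0.08 (SE; edgeR adjusted p = 0.639) and TFAM, which packs the DNA and starts transcription, at 0.02 ± 0.07 (SE; edgeR adjusted p = 0.916). With a library left out POLRMT ran from -0.18 to -0.01 and TFAM from -0.05 to 0.09, and with the TPM values POLRMT was above 0 and TFAM below 0.

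Of 19 genes of mitochondrial RNA processing, stability and decay, 2 had an unadjusted p-value under 0.05 (edgeR), beside 14.5% of all genes tested. None of the 19 passed the adjusted threshold, and their median was 0.03. Among them LRPPRC and SLIRP, whose products hold mitochondrial mRNAs stable as a pair, were at 0.11 ± 0.05 and -0.10 ± 0.06 (SE; edgeR adjusted p = 0.349 and 0.506), and FASTKD5, which acts on mRNA ends that no tRNA flanks, at -0.02 ± 0.08 (SE; edgeR adjusted p = 0.931). Of 15 genes of rRNA and tRNA modification and 13 of translation none passed (edgeR; 1 in each list at an unadjusted p-value under 0.05), with medians of 0.0012 and -0.02. Of 16 genes of mitochondrial DNA replication and upkeep, RRM2B, a ribonucleotide reductase subunit, was lower, from 87.9 ± 5.23 to 71.7 ± 2.42 CPM (SD, n = 3 each; log2 fold change -0.29 ± 0.06, SE; edgeR adjusted p = 0.0139), and the list's median was -0.01. It kept its call in 2 of the 6 fits that left out a library, those without LN-521 replicate 1 or 2 (edgeR adjusted p up to 0.122 in the others). POLG, the mitochondrial DNA polymerase, and TWNK, the helicase, were at -0.06 ± 0.08 and -0.18 ± 0.09 (SE; edgeR adjusted p = 0.801 and 0.408). Of 10 regulators of mitochondrial biogenesis, MYC was lower, from 33.6 ± 7.10 to 22.2 ± 1.88 CPM (SD, n = 3 each; -0.60 ± 0.14, SE; edgeR adjusted p = 0.0498), with a list median of -0.04. The MYC call held in 1 of the 6 fits that left out a library, that without LN-521 replicate 1 (edgeR adjusted p up to 0.315 in the others), and it was lost with RLE factors and with scaling without mitochondrial genes (edgeR adjusted p = 0.0513 and 0.0502). PPARGC1A, a coactivator of mitochondrial genes, was at -0.30 ± 0.14 (SE; edgeR adjusted p = 0.331).

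The mitochondrial subunits work in complexes with nuclear-encoded partners. Of 89 nuclear genes of the respiratory chain and ATP synthase by symbol, 85 were tested, 1 was lower and none was higher, with a median log2 fold change of -0.04. The lower gene, ATP5F1D, encodes the delta subunit of the ATP synthase and stood at 22.4, 23.3 and 21.1 CPM on LN-521 and at 17.3, 14.8 and 16.01 on the combined coating (-0.47 ± 0.09, SE; edgeR adjusted p = 0.00561). Its call was lost without LN-521+LN-221 replicate 2 (edgeR adjusted p = 0.0774). Fold changes were above 0 in 23 of the 85, and in 27 of 78 mitochondrial ribosomal proteins, beside 49.7% of all genes tested. None of the 78 passed (edgeR), with a median of -0.03. At an unadjusted p-value under 0.05 (edgeR) there were 3 of the 78, beside 14.5% of all genes tested. The calls of MTERF1, RRM2B, MYC and ATP5F1D were all lost with limma on log2(TPM + 1) (adjusted p = 0.426, 0.796, 0.290 and 0.299), where the values were 0.43, -0.16, -0.49 and -0.47. The difference between the mitochondrial and the nuclear genes was not tested.

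Markers of pluripotent and of other cells were given the same test. Of the 8 pluripotent stem cell markers, 3 were lower and 1 was higher on the combined coating. NANOG, a core pluripotency factor, fell from 107 ± 10.3 CPM to 64.5 ± 7.93 (SD, n = 3 each), at -0.73 ± 0.09 in log2 (SE; edgeR adjusted p = 1.65e-04). TDGF1, a co-receptor of Nodal signalling, was at -0.65 ± 0.06 and POU5F1, which encodes OCT4, at -0.36 ± 0.06 (SE; edgeR adjusted p = 8.23e-06 and 0.00366). LIN28A, an RNA-binding protein, was at 0.23 ± 0.05 (SE; edgeR adjusted p = 0.00737). Of 19 markers of differentiated or other cells 6 were tested, and THY1, a surface protein of several cell types, was lower (-0.38, edgeR adjusted p = 0.0146). The 19 summed to 445 to 514 CPM on LN-521 and 444 to 451 on the combined coating, mostly from COL1A1, COL1A2 and THY1, with LUM at 0 in all libraries and SOX17 at 0 in 2 of the LN-521 wells. The part of cell state in the mitochondrial values was not tested.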

How the data were processed

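Libraries were made from 700 ng of total RNA with a stranded kit for total RNA and read in pairs of 150 bp, per the labels' protocols. Per the submitters' processing notes, cutadapt, STAR (version 2.5.2b) and RSEM (version 1.2.31) were used with hg38; the gene annotation is not given in the sources used here. The authors deposited estimated counts per gene and TPM values, both for all 6 libraries. An estimated count can divide a read between genes, and depth is given by its total per library, from 20606450 to 26836686. Gene IDs were matched to symbols, and coordinates and sequences were taken from GENCODE release 29 (GRCh38). Estimated counts were rounded. Genes were kept by filterByExpr (minimum count 10), scaled by TMM and compared by the quasi-likelihood test of edgeR (version 4.0.16, under R 4.3.3), with Benjamini-Hochberg adjustment over the 17608 genes tested and a threshold of 0.05. CPM are TMM-scaled. The SE is the absolute log2 fold change divided by the square root of F. Every pair of libraries differed beyond sampling noise (chi-square per degree of freedom at least 2.76). On simulated counts for this comparison (17359 genes tested) 85% of log2 changes of 1 and 60% of those of 0.5 were recovered, and 7.05% of 156 calls were false. Genes were drawn independently there, and no change as small as those of the mitochondrial genes (0.08 to 0.44) was simulated. These rates were therefore not measured for changes like theirs.

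The members, lists and tests were chosen with earlier results of these data known. Named were all members that passed the filter, 8 fixed nuclear genes, listed nuclear genes with an adjusted p-value under 0.05 and, among nuclear copies, the 3 with the highest CPM. Alternatives were RLE factors, library size alone, scaling without mitochondrial genes, removal of 7SL, 7SK and rRNA genes, 2 other filters, DESeq2 (version 1.42.0), limma (version 3.58.1, with trend) on log2(TPM + 1) and log2(TPM + 0.1), a replicate block, 2 thresholds, other denominators of the share, and each library left out in turn.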

Additional observations from a re-analysis of the deposited data

How the results depend on the processing

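The 3 mitochondrial calls were 3 with RLE factors, DESeq2, a filter of 1 CPM in 3 libraries, scaling without mitochondrial genes, and removal of 7SL, 7SK and rRNA genes, and 2 with library size alone, where MT-CO3 was lost. They were 5 without a filter, with MT-ND1 and MT-ATP8 added, and MTATP6P1 passed too. They were 0 at a threshold of 0.01, and 0 with limma on log2(TPM + 1) or log2(TPM + 0.1). In each of these limma fits 6 had an unadjusted p-value under 0.05, beside 1128 and 1122 of 14428 genes tested. Leaving out a library gave from 0 to 5. The 0 came without any 1 of the LN-521+LN-221 wells (edgeR, 4 at an unadjusted p-value under 0.05 each time). Over all genes, 2026 of 17995, 1763 of 18036 and 1969 of 17823 had such a p-value in these fits (replicates 1, 2 and 3 left out). The count over all genes was 718 without a filter (46.8% higher, against 55.2%), 44 and 20 with the TPM values (33 and 12 of them higher), 221 and 725 at thresholds of 0.01 and 0.1, and 194 to 1179 with a library left out, lowest without LN-521+LN-221 replicate 3 and highest without LN-521 replicate 1. The share of counts kept its direction, with a log2 ratio of 0.21 and a range of 0.20 to 0.28 over other denominators and TPM, and of 0.12 to 0.27 with a library left out.

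With the replicate block there were 5 mitochondrial calls, the added ones MT-ND1 (0.41, edgeR adjusted p = 0.00212) and MT-ATP6 (0.40, 0.00134), and 646 over all genes. MTATP6P1 also passed (edgeR adjusted p = 0.00743). Deviations of same-numbered wells correlated at 0.068, -0.032 and -0.018. With 3 wells per coating these values do not settle whether the numbers pair wells, and pairing was not tested for the mitochondrial genes alone. Signs changed with the TPM values for FASTKD5 (0.013 and 0.015), POLRMT (0.032 and 0.033) and TFAM (-0.014 with either pseudocount). With a library left out, values ran from -0.226 to 0.269 for MT-RNR1, -0.037 to 0.377 for MT-ND4L, -0.0756 to 0.282 for MTCO1P12, -0.043 to 0.622 for MTND1P19, -0.1495 to 0.052 for POLG, -0.056 to 0.017 for FASTKD5 and -0.049 to 0.087 for TFAM. SLIRP, TWNK and PPARGC1A kept their sign but were nearer 0 on log2(TPM + 1), at -0.030, -0.031 and -0.125. For all of these the cause was not tested.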
